A study of Mus musculus with 4 samples.

Results

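Secreted modulators of Wnt, BMP and TGF-β signaling and their intracellular effectors were followed in cardiac neural crest cells (NCCs). Mutant cells had a targeted deletion of integrin-linked kinase (ILK) and were set against controls. The members were 8 genes with 10 probe sets (Sost, Dkk1, Fst, Wfikkn1, Tgfb2, Id2, Bmp2k and Lbxcor1), out of 45101 probe sets on the arrays. They were selected on the measured difference between the genotypes, because gene names came only from the authors' deposited table of 766 probe sets that differed in their own test of these same arrays. Their differences between genotypes are therefore a description, and no test of a member is given. Any other probe set of these genes on the arrays carried no name here and could not be followed. The probe set given for a gene is thus one that was selected as differing, and it need not stand for the gene. Within these 8 genes, 4 were higher in the NKO mutants (Sost, Dkk1, Wfikkn1 and Bmp2k) and 4 had a lower mean there (Fst, Tgfb2, Id2 and Lbxcor1). Only the arrays of Lbxcor1 overlapped between the genotypes. Over all probe sets, both mutant arrays were above both controls for 24.2% and below both for 18.4%.

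RNA came from the outflow tract (OFT) of mouse embryos at E10.5, with 2 arrays for control embryos and 2 for embryos with deletion of ILK in the neural crest (NKO mutants). The labels give the controls as wild type, whereas the methods describe littermates that carry Wnt1-Cre and 1 floxed ILK allele (Wnt1-Cre; ILK f/+), and NKO mutants that carry Wnt1-Cre and both floxed alleles (Wnt1-Cre; ILK f/f). Wnt1-Cre acts in the neural crest lineage, so that NCCs of both genotypes carried Cre and the lacZ reporter by which they were sorted, and other OFT cells kept ILK. Embryos of one genotype were pooled and several sorts were combined before RNA extraction, so the spread between 2 arrays is a spread between pools. No source used here says whether the 2 pools of a genotype came from different litters. Ilk itself, the targeted gene, was at 809.5 and 800.7 in control arrays and at 467.7 and 386.7 in NKO arrays, lower in both mutant arrays. The mutant mean was 427.2 against 805.1 in the controls, 46.9% lower, so Ilk signal remained. The source of the remaining signal was not tested, and these values do not show the sorted cells to be free of ILK.

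Wnt proteins act through Frizzled receptors with Lrp coreceptors and stabilize β-catenin, which works with TCF/LEF factors in the nucleus. BMP and TGF-β ligands form dimers that assemble receptor serine/threonine kinases, and these phosphorylate SMAD proteins that enter the nucleus. Much of the control of all 3 pathways lies outside the cell, where antagonists hold ligands or coreceptors away from signaling. In the OFT, BMP and TGF-β signals are known to act on cushion mesenchyme, on NCCs and on smooth muscle differentiation.

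Intensities are linear, normalized array signals in arbitrary units, and a level can be compared between arrays for a probe set but not between probe sets. Fold changes are differences of mean log2(intensity + 16), NKO minus control, with the standard error (SE) of the limma fit over all 45037 probe sets that are not Affymetrix controls. The added 16 narrows the fold changes of dim probe sets. In bulk RNA, fewer cells of a type and less RNA per cell cannot be told apart.

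**Figure D1:**
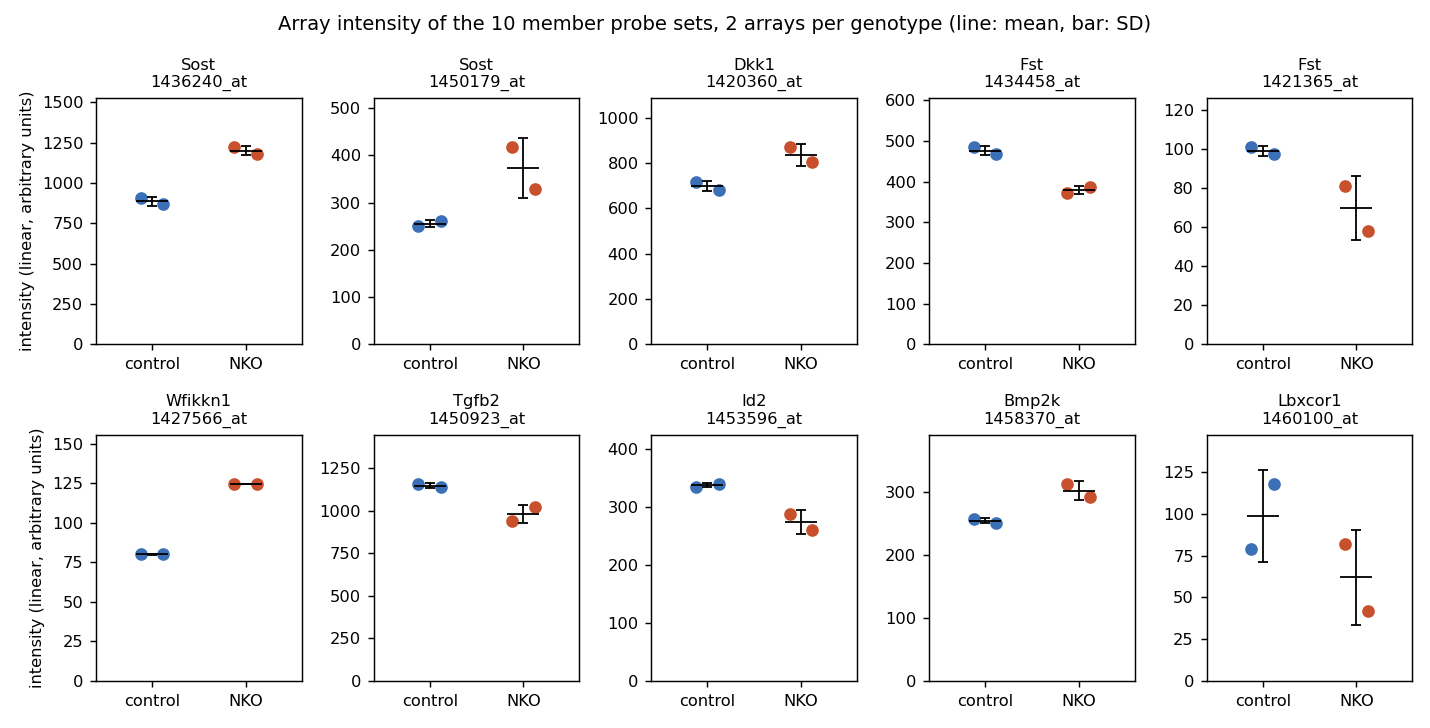
Linear array intensity (vertical axis, arbitrary units, each panel from 0) of the 10 probe sets of the 8 genes in 2 control (blue) and 2 NKO (red) arrays, with the mean as a line and the SD as a bar. The genotypes do not overlap in 9 panels, and in the Lbxcor1 panel the first NKO array (82.2) lies between the controls (79.2 and 118.1). The probe sets had been chosen by this contrast. Over all probe sets, both NKO arrays were above both controls for 24.2% and below both for 18.4%.

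The secreted Wnt antagonists Sost and Dkk1 were both higher in the NKO mutants. Sost encodes sclerostin, which binds the Wnt coreceptors Lrp5 and Lrp6 and is best known as a product of osteocytes that restrains bone formation. On its brighter probe set (1436240_at), Sost was at 905.6 and 865.9 in control arrays and 1221 and 1179 in NKO arrays. Both mutant arrays were above both controls, and the closest pair of arrays still differed by 30.2%. The group means were 885.8 ± 28.0 and 1200 ± 29.6 (SD, n = 2 each), which is 35.5% higher in the mutants, or a log2 fold change of 0.43 (SE 0.063). The gap between arrays of a genotype was at most 0.063 on the log2 scale, so the difference was 6.80 times as large as the wider gap.

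The second Sost probe set (1450179_at) was at 250 and 261.0 on the control arrays, and 417.1 and 327.8 on the NKO arrays. It also separated the genotypes, but its mutant arrays lay far apart, with the first clearly higher, and the difference was 1.52 times the wider gap. Its log2 fold change was 0.51 (SE 0.13), which became 0.34 without the first NKO array and 0.67 without the second. The same array choice moved the brighter Sost probe set less, to 0.41 without the first NKO array and 0.46 without the second. With any 1 array left out, control arrays included, the brighter probe set lay between 0.40 and 0.46. Both named probe sets of Sost gave the same direction and a similar size, with a wider spread on the second. A Sost probe set that did not differ would not have carried a name, so their likeness is not independent of the selection.

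Dkk1 encodes a secreted antagonist that takes Lrp coreceptors out of Wnt signaling together with Kremen proteins, and it is itself a known Wnt target gene. Its probe set (1420360_at) was at 713.8 and 681.0 in the controls, against 869.2 and 801.9 in the NKO mutants. Both mutant arrays were above both controls by at least 12.3%, a smaller separation than that of Sost. The log2 fold change was 0.25 (SE 0.072), or a mean that was 19.8% higher, and it lay between 0.20 and 0.31 with any 1 array left out.

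Start-site sequences are shown for the Wnt antagonists, which were both higher, and for the ligand Tgfb2 and the effector Id2, which were both lower, so that their promoters can be read beside these values. Of the 8 members, 7 matched by symbol a window of 250 bases before to 50 after the start in the RefSeq table of build GRCm38.p6, where Lbxcor1 is entered as Skor1. Fst is not matched. Windows run 5′ to 3′ on the gene's own strand, which is the minus strand for these 4 genes, at chr19:30549447-30549746 for Dkk1, chr11:101966966-101967265 for Sost, chr1:186705940-186706239 for Tgfb2 and chr12:25096043-25096342 for Id2. Capitals mark matches on either strand. The motifs searched were the TCF/LEF cores CTTTGA and CTTTGT, which differ only in the last base and cannot match at the same position. The others were the SMAD motif CAGAC, then its GC-rich form, which reads GGCGCC, and finally the TATA box, searched for as TATAAA.
Dkk1: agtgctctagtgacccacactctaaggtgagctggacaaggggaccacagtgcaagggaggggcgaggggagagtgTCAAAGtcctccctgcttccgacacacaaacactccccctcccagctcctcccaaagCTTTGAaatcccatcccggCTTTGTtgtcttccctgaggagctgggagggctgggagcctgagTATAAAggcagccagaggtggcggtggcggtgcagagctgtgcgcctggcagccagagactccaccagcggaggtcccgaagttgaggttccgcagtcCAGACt
Sost: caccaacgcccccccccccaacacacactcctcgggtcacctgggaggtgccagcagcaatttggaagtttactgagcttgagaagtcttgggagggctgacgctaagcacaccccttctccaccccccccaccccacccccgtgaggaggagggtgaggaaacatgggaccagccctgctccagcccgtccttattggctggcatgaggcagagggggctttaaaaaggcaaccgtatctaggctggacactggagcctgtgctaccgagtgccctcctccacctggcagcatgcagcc
Tgfb2: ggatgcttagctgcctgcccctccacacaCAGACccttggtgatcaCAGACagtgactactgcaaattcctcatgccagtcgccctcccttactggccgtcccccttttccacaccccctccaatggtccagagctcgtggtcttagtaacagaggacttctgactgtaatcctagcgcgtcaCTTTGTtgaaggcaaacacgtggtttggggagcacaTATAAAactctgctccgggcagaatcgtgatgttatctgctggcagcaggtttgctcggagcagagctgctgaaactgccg
Id2: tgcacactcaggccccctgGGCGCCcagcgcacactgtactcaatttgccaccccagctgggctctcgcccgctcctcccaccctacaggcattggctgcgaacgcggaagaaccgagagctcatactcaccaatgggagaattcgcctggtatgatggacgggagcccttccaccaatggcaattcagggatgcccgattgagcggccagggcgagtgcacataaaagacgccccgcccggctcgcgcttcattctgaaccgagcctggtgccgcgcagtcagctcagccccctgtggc

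The Dkk1 window held 3 TCF/LEF matches, of which CTTTGA lay 117 bases before the start, CTTTGT 98 bases before it and a reverse CTTTGA 174 bases before it. It also held TATAAA 54 bases before the start and CAGAC at base 45 counted from the start. One of the 2 TCF/LEF motifs was found in 31.2% of all 32851 windows of the table, CAGAC in 49.6% and TATAAA in 13.6%. The Sost window held none of the 5 motifs. The Tgfb2 window held the same 3 kinds of motif as that of Dkk1, with 2 CAGAC matches, 1 CTTTGT match 67 bases before the start and TATAAA 31 bases before the start. Id2, a BMP target, had 1 GGCGCC match 231 bases before the start, and this motif occurred in 11.9% of windows. Wfikkn1 had 1 CAGAC match, 118 bases before the start. Bmp2k had 3 GGCGCC matches in a window of 83.3% GC, against a median of 52.7% over all windows, and 1 of the 3 Skor1 windows had 1 GGCGCC match, 91 bases before the start. A match describes the letters of a window and not binding of a factor.

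Among ligands and their extracellular antagonists of the TGF-β family, the ligand gene Tgfb2 and the antagonist gene Fst were lower and the antagonist gene Wfikkn1 was higher. Tgfb2 encodes a TGF-β ligand that is expressed in the developing OFT and is needed for its septation in mice. Its probe set (1450923_at) was at 1157 and 1138 in control arrays and 940.8 and 1019 in NKO arrays. Both mutant arrays were below both controls, with the second mutant array nearer to them. The means were 1147 ± 13.6 and 979.8 ± 55.1 (SD, n = 2 each), or 14.6% lower in the mutants, and the log2 fold change of −0.23 (SE 0.069) was the smallest in size of the 10 probe sets. It was −0.17 without the first NKO array and −0.28 without the second.

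Fst encodes follistatin, a secreted protein that binds activins with high affinity and several BMPs and GDFs. Its brighter probe set (1434458_at) was at 484.5 and 467.7 on the control arrays, and 372.3 and 386.4 on the NKO arrays. The arrays of each genotype lay close together and the genotypes were separate, with a log2 fold change of −0.32 (SE 0.061), which was 6.1 times the wider gap within a genotype. The dimmer Fst probe set (1421365_at) was at 101.1 and 97.4 in the controls, against 81.4 and 58.3 in the NKO mutants. Both mutant arrays were below both controls, but the second was far below the first, and the difference was 1.12 times the wider gap. The log2 fold change of −0.44 (SE 0.15) became −0.24 without the second NKO array and −0.63 without the first. As with Sost, the shared direction of the Fst probe sets is not independent of the selection.

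Wfikkn1 encodes a secreted protein with follistatin, immunoglobulin and protease inhibitor domains that is known to bind the TGF-β family ligands myostatin and Gdf11. Its probe set (1427566_at) was at 80.0 and 80.3 in control arrays and 124.6 and 124.7 in NKO arrays. Arrays of a genotype hardly differed, and the mutant mean was 55.5% higher. The log2 fold change was 0.55 (SE 0.056), and it remained between 0.546 and 0.550 with any 1 array left out. Its log2 gaps of 0.004 between controls and 0.0005 between mutants were far below the medians over all probe sets, 0.078 and 0.10. The SE was 0.091 when limma was run with an intensity trend and robust moderation. This probe set is dim enough for the offset to matter, since the fold change was 0.63 with an offset of 1 and 0.39 with an offset of 64.

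The intracellular members went both ways. Bmp2k encodes a serine/threonine kinase first described as induced by BMP2 in cells that form osteoblasts. Its probe set (1458370_at) was at 256.2 and 250.8 on the control arrays, and 312.1 and 290.8 on the NKO arrays. Both mutant arrays were higher, the nearest pair by 13.5%, and the log2 fold change was 0.24 (SE 0.066). Id2 encodes a helix-loop-helix protein without a DNA-binding region that holds other such factors inactive, and it is a BMP target in many cell types. Its probe set (1453596_at) was at 335.0 and 339.5 in the controls, against 288.3 and 259.6 in the NKO mutants, so both mutant arrays were lower. The Id2 log2 fold change was −0.29 (SE 0.075), or 18.8% lower.

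Lbxcor1, now named Skor1, encodes a transcriptional corepressor of the Ski family that binds the homeodomain factor Lbx1 and SMAD proteins. Its probe set (1460100_at) was at 79.21 and 118.1 in control arrays, and at 82.2 and 41.78 in NKO arrays, so that the genotypes overlapped. It had the largest fold change in size and the widest spread, with a log2 fold change of −0.58 (SE 0.32) against gaps of 0.49 between the controls and 0.77 between the NKO arrays. Its second control and second NKO array lay outside the range of the other genotype, and its first arrays did not. The fold change was −0.97 without the first NKO array and −0.20 without the second, and −0.83 without the first control and −0.34 without the second. The difference was thus smaller than the gap between the mutant arrays and rested largely on the second of them.

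**Figure D2:**
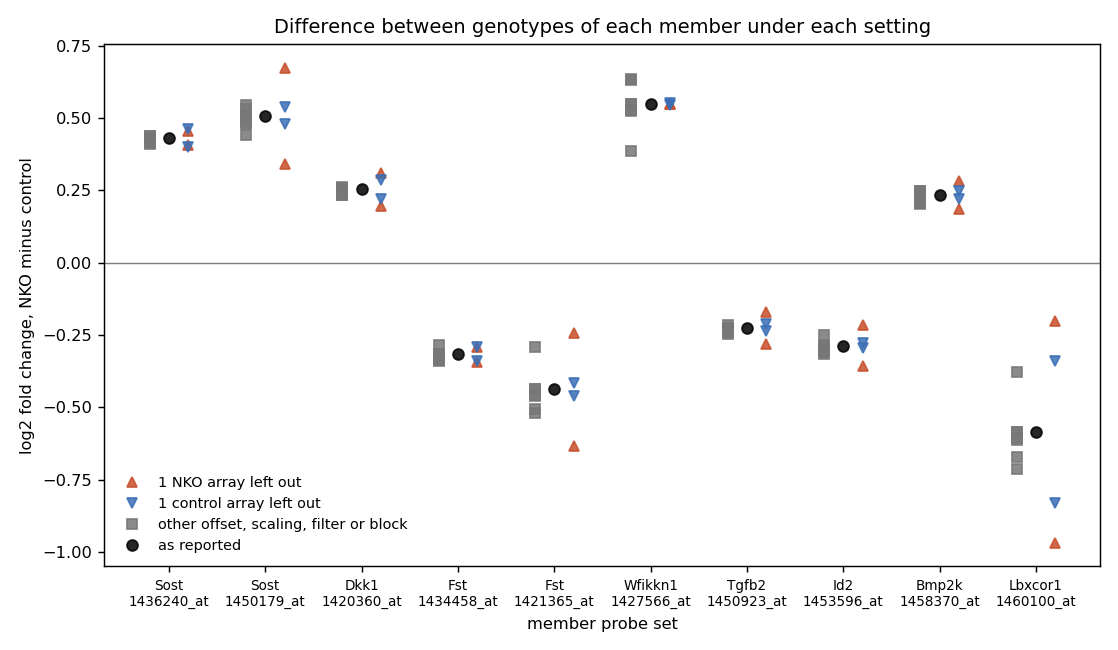
Log2 fold change of log2(intensity + 16) or of its alternatives, NKO minus control (vertical axis), of each member probe set as reported (black), with 1 NKO array (red triangles) or 1 control array (blue triangles) left out, and with another offset, scaling, filter or block (grey squares). Every point of a probe set stays on its side of 0, which for probe sets with separate genotypes was fixed in advance under most settings. The points are widest for Lbxcor1, from −0.97 to −0.20.

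On the log2(intensity + 16) scale, 0 of 10 were at least 1.5-fold higher or lower, where 0.286% of the 45037 probe sets were higher and 0.158% lower by that much. Lbxcor1 lay just under the cutoff, with a log2 fold change of −0.5848. As a plain ratio of mean intensities, Wfikkn1 was 1.55-fold higher (4.45% of probe sets reached 1.5-fold higher in this way) and Lbxcor1 1.59-fold lower (3.39% of probe sets). Both NKO arrays were above both controls for 5 of 10 (24.2% of all probe sets) and below both for 4 of 10 (18.4% of all probe sets). Over all probe sets, limma gave 0% an adjusted p under 0.05, 8.82% an unadjusted p under 0.05 and, with an intensity trend and robust moderation, 1.15% an adjusted p under 0.05, and members are not counted by these calls. Because the members had been chosen by the same contrast, nothing is read from these shares. The median size of the log2 fold change was 0.37 over the 10 probe sets and 0.086 over all probe sets, and the smallest of the 10, that of Tgfb2, was 0.23.

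**Figure D3:**
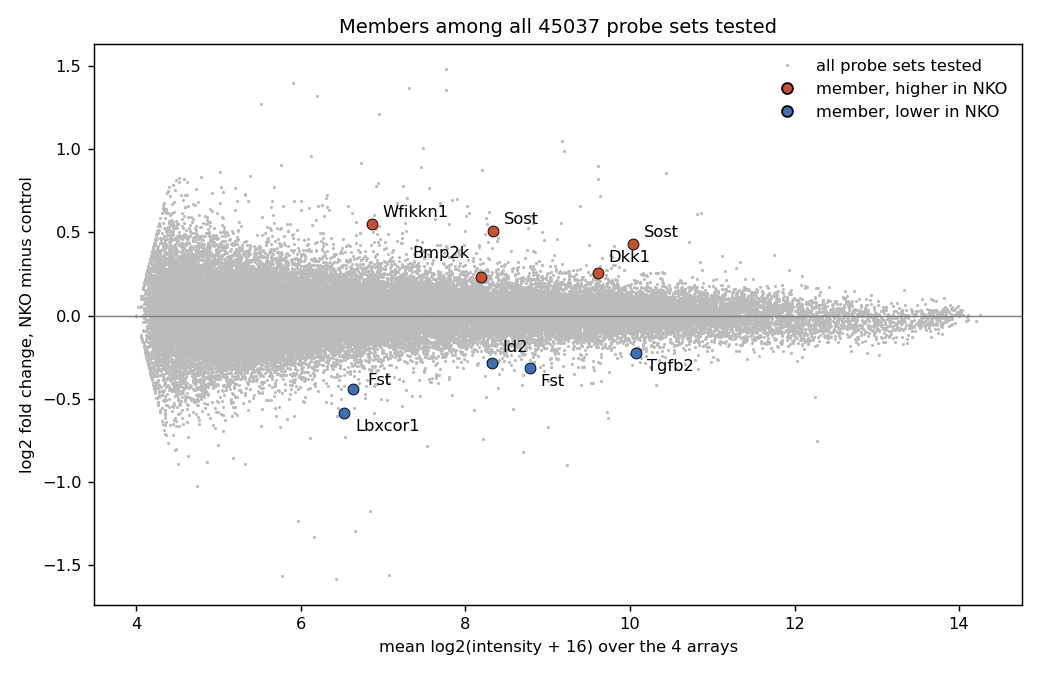
Log2 fold change, NKO minus control (vertical axis), against mean log2(intensity + 16) over the 4 arrays (horizontal axis) for all 45037 probe sets tested (grey), with the member probe sets that were higher (red) or lower (blue) in the NKO mutants. The members lie at the edge of the grey cloud for their brightness, which is how they had been chosen, and larger differences in both directions belong to other probe sets.

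The remaining genes of the 3 pathways were looked up in lists of 88 Wnt, 53 BMP and 51 TGF-β and activin genes, 187 different genes in all. The authors' deposited table names 15 of the 187, the 8 members and 7 others. Those 7, which like the members had been chosen by their difference on these arrays, were each higher in both NKO arrays than in both controls (24.2% of all probe sets). Genes of the lists that the table does not name could not be followed, so the counts do not describe a pathway as a whole.

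Of these 7 genes, 6 are described here one by one. Ctgf, the connective tissue growth factor gene and a known TGF-β target in many cell types, was at 770.1 and 742.2 on the control arrays, and 1028 and 1001 on the NKO arrays, with a log2 fold change of 0.42 (SE 0.060). The ligand gene Tgfb2 thus had the opposite direction to Ctgf in the same arrays. Ctgf is also a known target of other pathways, and the source of its difference was not tested.

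Inhba encodes the subunit of activin A, the ligand that follistatin binds. It was at 574.5 and 518.4 in the controls, against 717.3 and 595.3 in the NKO mutants, with a log2 fold change of 0.25 (SE 0.12) that was 0.964 times the gap between the mutant arrays, while Fst was lower. Fstl1, a secreted glycoprotein related to follistatin, was at 512.6 and 490.8 in control arrays and 613.1 and 591.6 in NKO arrays, higher by 0.26 (SE 0.062) on the log2 scale and opposite to Fst. The BMP target Msx2, a homeobox gene, was at 584.6 and 572.1 in control arrays and 707.2 and 699.2 in NKO arrays, higher by 0.28 (SE 0.057), whereas the BMP target Id2 was lower. Ctnnb1, which encodes β-catenin, was at 328.0 and 278.0 in control arrays and 364.0 and 388.2 in NKO arrays, a difference of 0.30 (SE 0.10) on the log2 scale with a wide gap between the controls. Tgfb1i1, a focal adhesion adaptor gene induced by TGF-β, was at 294.5 and 291.5 in control arrays and 347.1 and 349.6 in NKO arrays, a difference of 0.24 (SE 0.056).

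**Figure D4:**
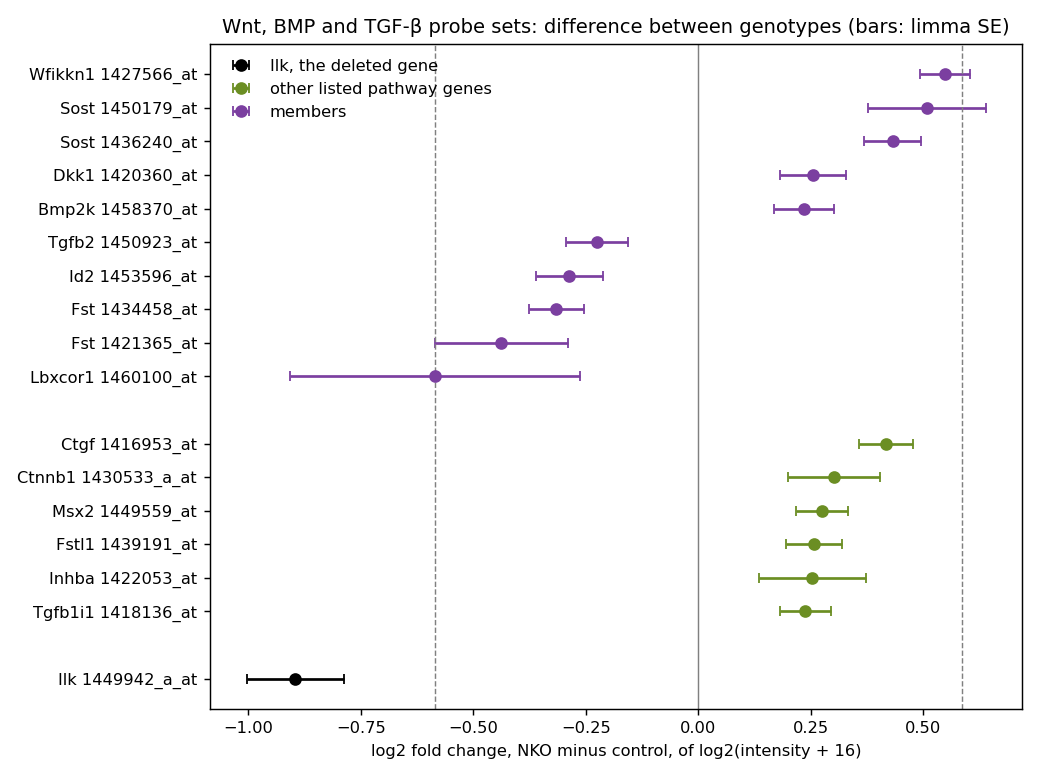
Log2 fold change of log2(intensity + 16), NKO minus control (horizontal axis), with the limma SE as bars, for the 10 member probe sets (purple), 6 other listed genes of the 3 pathways (green) and Ilk (black), with dashed lines at 1.5-fold. The members fall on both sides of 0, from −0.58 to 0.55, the 6 other genes lie between 0.24 and 0.42, and Ilk is at −0.90.

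The genes most like Sost and Tgfb2 over the 4 arrays were found among 540 other genes that the authors' deposited table names alone, by Euclidean distance between mean-centred log2(intensity + 16) values. For Sost these were Ctgf (distance 0.0185), the G-protein regulator gene Rgs4 (0.0319) and Plac8 (0.0381). Among the 3 most like Tgfb2 were Klhl4 (0.0281), with 580.7 and 584.5 in control arrays and 482.9 and 517.5 in NKO arrays, and the cardiac troponin gene Tnnt2 (0.0307). With 4 arrays and genes already selected as differing, likeness says little more than that the direction, the size and the order of the mutant arrays were shared.

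Markers of several cell types were among the probe sets that the authors' test had selected as differing on these arrays. Only such markers carried a name, so that each named marker differed was fixed in advance. Markers that did not differ could not be followed, and the counts do not describe a cell type as a whole. Over all probe sets, both NKO arrays were above both controls for 24.2% and below both for 18.4%. Of 20 neuronal markers 14 were named and all 14 were higher, their summed intensity being 2522 to 2523 in the controls and 4541 to 4795 in the NKO mutants, and all 11 named of 16 platelet markers were higher, at 2624 to 2652 and 4488 to 4630. All 7 named of 17 heart muscle markers were lower, at 10740 to 10850 in the controls and 8831 to 8879 in the mutants, as were all 5 named of 14 skeletal muscle markers, at 1605 to 1619 and 1191 to 1193. The 4 named of 14 myeloid markers were higher, at 423.9 to 434.8 in the controls and 627.0 to 669.9 in the mutants, as were the 2 named of 12 red blood cell markers (1273 to 1290 and 1502 to 1612) and the 2 named of 10 endothelial markers (438.0 to 451.5 and 535.7 to 574.0). Of 12 bone cell markers 2 were named, Sost itself and Spp1, both higher. Of 15 neural crest markers only Pax3 and Prrx1 were named, both higher (summed, 4020 to 4188 and 4848 to 4885), so the sorted identity could not be checked on the defining markers Sox10 and Foxd3. The sums weigh the brightest probe sets most, as with Tnnt2, alone at 4289 and 4252 in the controls, and are not a level of a cell type. No named marker was listed at 0. The 18 Affymetrix hybridization control probe sets were higher in the NKO arrays by a median of 0.22 on the log2 scale (0.26 over 27 poly-A control probe sets, of which 23 were higher), a size close to that of Dkk1 and Bmp2k, against a median of 0.013 over the 45037 probe sets tested. The part of these marker and control differences in the values of the members was not tested.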

How the data were processed

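RNA of sorted NCCs was hybridized to 4 Affymetrix mouse genome arrays, 2 per genotype, grouped by the labels. The authors deposited linear intensity values after a normalization whose algorithm and background correction no source used here states. Affymetrix Expression Console is the one tool in the submitters' processing notes. The mean of the control columns matched the authors' deposited control intensity within 0.0447%. That second table, made with VAMPIRE at a Bonferroni threshold of 0.05, also holds fold changes and p values, which were not used. It gave the gene names, of which 603 probe sets carry 1 name, 48 several and 115 none.

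The 64 Affymetrix controls were left out and no further scaling was applied. Genotypes were compared on log2(intensity + 16) over 45037 probe sets by limma (version 3.58.1, lmFit followed by eBayes, under R 4.3.3). Adjusted p values are those of Benjamini and Hochberg, called under 0.05. The 1.5-fold cutoff is that of the methods. Figures and tables used Python 3.11.15, pandas 2.3.3, numpy 2.4.6 and matplotlib 3.10.9, and the fitting script was first tested on simulated data. Precision is limited by the number of arrays: 2 against 2 cannot give a two-sided exact permutation p below 0.333, and p values measure only the spread between these pools. Named were every member probe set, every gene of the 3 pathway lists that the table names alone, Ilk, and the 3 genes most like Sost and Tgfb2. Of the genes this rule takes in, 2 are not reported here. A gene of a list is represented by its brightest named probe set. The members and lists were chosen with earlier results of these data known. Alternatives were other offsets (1 and 64), the ratio of linear means, median centring, quantile normalization, leaving out dim probe sets, an intensity trend with robust moderation, a t-test per probe set, each array left out and the replicate number as a block. The methods name Student's t-test for comparisons of 2 groups in general and do not tie it to the arrays.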

Additional observations from a re-analysis of the deposited data

Results flagged for a closer look

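The Affymetrix hybridization controls, probe sets for control transcripts and outside the comparison of genes, gave a higher signal in the NKO arrays than in the control arrays. Their median difference was 0.22 on the log2 scale (0.082 to 0.31 over 18 probe sets), and in all 18 both NKO arrays were above both controls. The 27 poly-A control probe sets were less uniform, with a median of 0.26 (−0.29 to 0.71), 23 of 27 higher and 15 of 27 with both NKO arrays above both controls. No source used here says whether control transcripts were added to these samples.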

How the results depend on the processing

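The direction of each of the 10 member probe sets held under every alternative run, with 5 higher and 5 lower each time. For all but Lbxcor1, whose arrays overlap, most of this was fixed in advance. Another offset, the ratio of linear means or 1 array left out cannot change the sign when the genotypes do not overlap. The filter on brightness and the replicate block leave the fold change as it is. Only median centring and quantile normalization could have changed those directions. Wfikkn1, whose arrays hardly differ, moved by more than the spread between them with another offset or scaling (0.39 to 0.64). Members at 1.5-fold depended on the setting. Lbxcor1, which lay just under it as reported, reached it after median centring or quantile normalization. Wfikkn1 and Lbxcor1 reached it with an offset of 1 or as a ratio of linear means. Without the first control array, Lbxcor1 reached it. Without the first NKO array the dimmer Fst probe set and Lbxcor1 did, and without the second NKO array the dimmer Sost probe set. Across the array, a rise of at least 1.5-fold was reached by 1778 and a fall by 1557 with an offset of 1, 23 and 13 with an offset of 64, 38 and 13 among bright probe sets, and 2002 and 1525 as a ratio of linear means, against 129 and 71. With 1 array left out, these counts were 226 to 387 higher and 145 to 259 lower.

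Limma gave 0 probe sets an adjusted p under 0.05, against 520 with an intensity trend and robust moderation, 60 with an offset of 64 and 52 among bright probe sets, and 0 by a t-test per probe set after Benjamini-Hochberg adjustment. At an unadjusted p under 0.05 there were 3972, and 1865 to 5628 with 1 array left out. The 3972 split into 2331 higher and 1641 lower, but 1900 and 2079 after median centring and 2095 and 2028 after quantile normalization. Both NKO arrays were above both controls for 10910 probe sets, for 6732 among bright probe sets and for 15407 to 20004 with 1 array left out, and below both for 8289, 4589 and 12870 to 16300. The excess of higher probe sets depended on scaling, with 9029 above and 10183 below after median centring, and 9675 and 9700 after quantile normalization. The replicate numbers of the labels were not taken to pair the arrays, since same-numbered arrays deviated with a correlation of −0.033 over probe sets. With the replicate block, 0 probe sets had an adjusted p under 0.05 and 3440 an unadjusted p under 0.05, and the SE of Tgfb2 was 0.076.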
